A study of Mus musculus with 9 samples.

Results

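The transcripts of 34 genes of the hypoxia-inducible factor (HIF) system were followed across mouse embryonic fibroblasts (MEFs) of 3 genotypes, out of 24341 genes listed in each RNA-seq count file. The 34 were taken by symbol from a list of HIF subunits, oxygen sensors and HIF targets outside glycolysis that was drawn up with earlier results of these data known, and all 34 were found in the files. There were 9 libraries, with 3 each from wild-type (WT), Atm-/- and Sirt6-/- MEFs, all labelled as C57BL/6. The cells were grown in DMEM with fetal bovine serum, and the study's methods describe culture in atmospheric oxygen and name no hypoxic treatment of these cells. *Atm* encodes a kinase that signals DNA double-strand breaks, and *Sirt6* encodes a chromatin-bound deacetylase. The treatment label covered all libraries alike and also listed P53-/- and Atm-/-P53-/- mice, and the methods describe immortalised Atm-/-;p53-/- and Sirt6-/- lines obtained from separate laboratories. The labels of the libraries did not state which were p53-null, immortalised or from which laboratory, so the knocked-out gene, p53 status and the history of each line cannot be told apart here. Nothing in the labels said whether the 3 libraries of a genotype came from separate cultures, so the p-values below measure the spread between these libraries, which may be technical.

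HIF is a heterodimer of an oxygen-regulated α subunit (HIF-1α from *Hif1a* or HIF-2α from *Epas1*) and the stable partner ARNT. In oxygenated cells, prolyl hydroxylases (*Egln1*, *Egln2* and *Egln3*) mark the α subunit for the VHL ubiquitin ligase, while the asparaginyl hydroxylase FIH (*Hif1an*) blocks its transactivation domain. When oxygen falls, the dimer binds short ACGTG or GCGTG elements and activates genes for angiogenesis, mitophagy, metabolism, iron uptake and collagen cross-linking, the last of particular weight in fibroblasts. HIF-α is controlled mainly as a protein, and only RNA was measured here.

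Each library held between 32187040 and 33837949 counts (median 33156455), so that 3 counts corresponded to 0.0887 to 0.0932 CPM, the unit of library-scaled levels used below. *Sirt6* averaged 0.162 CPM in the Sirt6-/- libraries against 14.4 CPM in WT. *Atm*, in contrast, was at 109, 102 and 102 CPM in the libraries labelled Atm-/- and at 48.2, 51.7 and 51.7 CPM in WT. Reads summed over the gene therefore showed no loss of *Atm* transcript. Such sums do not check a deletion, so the label was neither borne out nor contradicted by them. These samples are called the libraries labelled Atm-/- throughout. *Trp53* averaged 25.9 CPM in the libraries labelled Atm-/-, 219 CPM in WT and 279 CPM in Sirt6-/-. The fibroblast identity of the cells was checked on 10 marker genes, whose summed level per transcript length (RPKM, reads per kilobase scaled to library size) was 6182 to 6725 in WT, 2684 to 2742 in the libraries labelled Atm-/- and 4701 to 4728 in Sirt6-/-. Of the 9 markers tested, 8 were lower and *Thy1* was higher in the libraries labelled Atm-/-, whereas 6 were lower and 3 higher in Sirt6-/-. *Lum* was barely present in any library, with 5 to 10 reads in WT and 0 in the libraries labelled Atm-/-. The summed level of 6 epithelial markers was 12.5 to 14.2 RPKM in WT, 62.2 to 67.8 RPKM in the libraries labelled Atm-/- and 12 to 14 RPKM in Sirt6-/-, 3 of them (*Cdh1*, *Krt18* and *Krt19*) being higher than WT in the libraries labelled Atm-/-. Endothelial and muscle markers, 6 each, summed to at most 2.43 and 0.513 RPKM, and the endothelial marker *Tie1* had no reads in any library. The summed level of 6 neural markers was 1.6 to 1.78 RPKM in WT, 27.7 to 32.7 RPKM in the libraries labelled Atm-/- and 26.2 to 27.6 RPKM in Sirt6-/-, and that of 5 blood and macrophage markers was 7.37 to 8.22, 12.1 to 13.6 and 10.5 to 13.1 RPKM in the same order. Of the 3 of these 5 that were tested, *Cd14* was higher and *Csf1r* lower than WT in both mutant lines, and *Cd68* was lower in Sirt6-/-. The part of these cell-state differences in the results below was not tested. In bulk RNA, fewer cells making a transcript and less transcript per cell cannot be told apart.

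The HIF genes did not move as a block in either line. In the libraries labelled Atm-/-, 8 of the 33 members tested were higher than in WT and 19 were lower. Differential expression was tested with the edgeR quasi-likelihood test at a Benjamini-Hochberg adjusted p under 0.05 over all genes, by which 68.4% of all 13283 genes tested were called (34.7% higher and 33.6% lower). The members' median log2 fold change was -0.44, against 0.015 over all genes tested. In the Sirt6-/- libraries, 14 of 34 members were higher than in WT and 13 were lower, where 76.6% of all 13206 genes tested were called (39.2% higher and 37.4% lower). The median log2 fold change here was 0.083 over members and 0.024 over all genes tested. The libraries of the 2 genotypes did not overlap for 30 of the 33 members in the first comparison (72.6% of all genes tested) and for 30 of the 34 in the second (79%). The number of members called, 27 in each comparison, thus lay close to the very high background of calls between these lines. At a change of at least 2-fold, 10 members were called in the libraries labelled Atm-/-, where the background was 22.5%, and 14 in Sirt6-/-, where the background was 29.3%. *Car9* had too few reads to be tested against WT in the libraries labelled Atm-/-.

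Set against each other, the 2 mutant lines differed mostly in 1 direction. Of 34 members tested, 22 were lower and 5 higher in the libraries labelled Atm-/- than in Sirt6-/-, against a background of 75.8% of 13460 genes called (37.8% lower and 38% higher). The libraries did not overlap for 29 of the 34 members (78.2% of all genes tested). The median log2 fold change was -0.46 over members and 0.0021 over all genes tested. Both comparisons with WT share the WT libraries, so that the members' values are given side by side. Against WT, 68.4% and 76.6% of all genes tested were called. The share of all genes with each joint pattern was not determined, so the counts below do not set the members apart from other genes. By these calls, 8 members were higher in both lines (*Adm*, *Stc2*, *Mif*, *Bnip3*, *Ddit4*, *Kdm3a*, *Mxi1* and *Bhlhe41*) and 10 were lower in both (*Epas1*, *Egln3*, *Vegfa*, *Ndrg1*, *Ero1l*, *P4ha1*, *Plod2*, *Loxl2*, *Bhlhe40* and *Ak4*). Another 4, *Hif1a*, *Fam162a*, *P4ha2* and *Lox*, were lower in the libraries labelled Atm-/- and higher in Sirt6-/-, and each of these 4 also differed between the mutant lines in the direct test. Against WT, 5 members (*Arnt*, *Vhl*, *Hif1an*, *Bnip3l* and *Higd1a*) were called lower in the libraries labelled Atm-/- and were not called in Sirt6-/-, and all 5 also differed between the mutant lines. Conversely, *Plod1* and *Ankrd37* were called higher, and *Egln2*, *Gbe1* and *Tfrc* lower, in Sirt6-/- and were not called in the libraries labelled Atm-/-. Of these, all but *Gbe1* differed between the mutant lines. *Egln1* and *Car9* were called against WT in neither line.

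**Figure D1:**
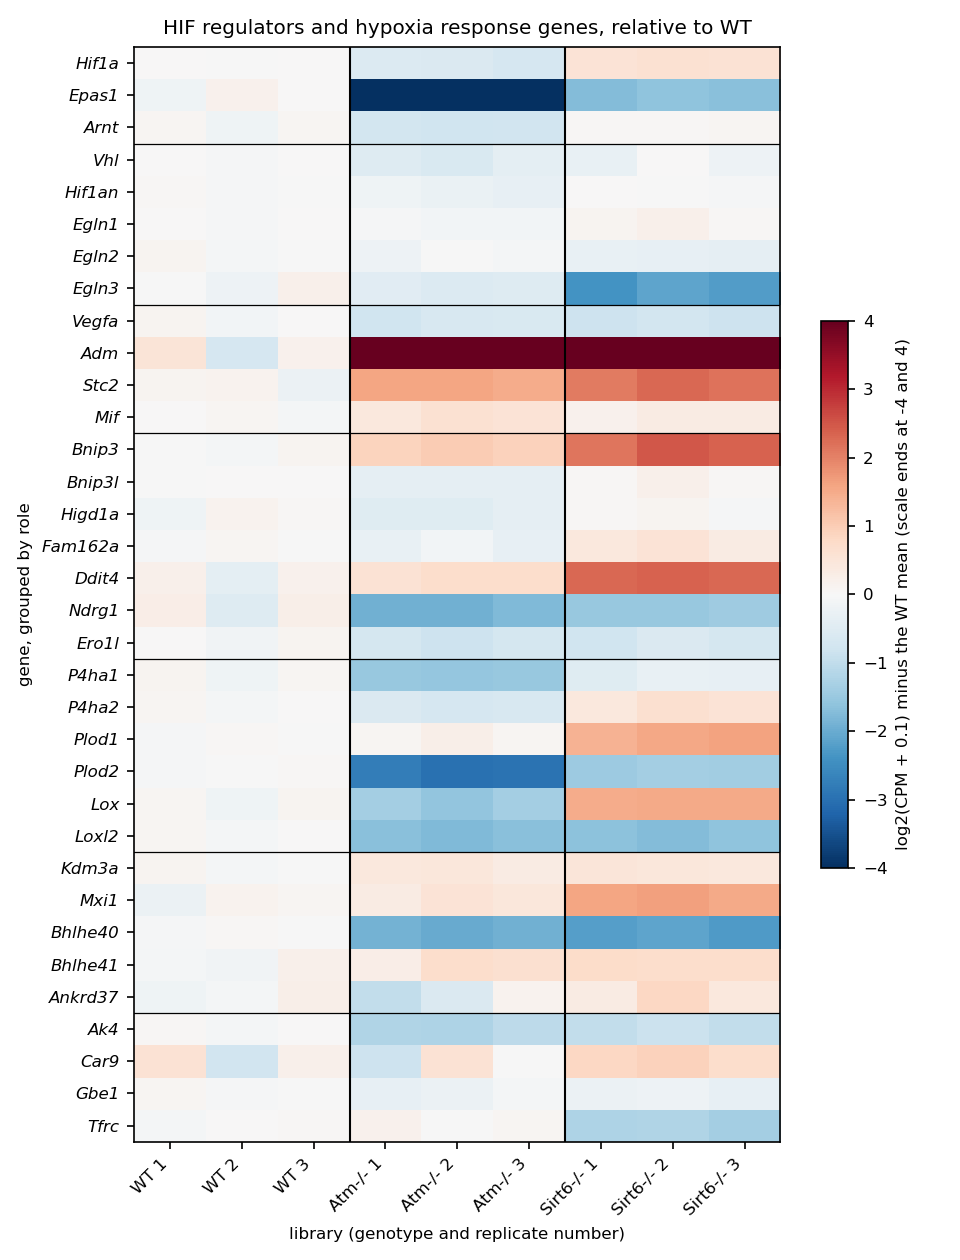
Level of each of the 34 genes (rows, grouped by role) in each of the 9 libraries (columns), as log2(CPM + 0.1) minus the WT mean, with the colour scale ending at -4 and 4; "Atm-/-" marks the libraries so labelled. Red rows in both mutant lines include *Adm*, *Stc2* and *Bnip3*, blue rows in both include *Epas1*, *Plod2* and *Bhlhe40*, and *Lox* and *Hif1a* turn from blue to red.

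WT library 2 stood apart over all genes and not only in these HIF genes. Its mean chi-square per gene (genes with at least 10 reads in the pair) was 15.6 against WT 1 and 14.4 against WT 3. The other pairs of libraries within a genotype gave 5.11 to 6.66. WT library 2 was the lowest of the 3 WT libraries for 22 of 34 members, whereas 35.2% of 10570 expressed genes were lowest there. The pattern covered *Ndrg1*, *Ddit4*, *Adm*, *Arnt*, *P4ha1* and *Lox*, but not *Epas1*, which was highest in that library. Without it, 7 members were higher and 21 lower in the libraries labelled Atm-/-, and 13 were higher and 14 lower in Sirt6-/-. Without it, too, the log2 fold change of *Ndrg1* was -2.14 and -1.75 in the libraries labelled Atm-/- and Sirt6-/-, and that of *Adm* was 4.20 and 6.82. Among the Sirt6-/- libraries, replicate 2 was the highest for 24 of 34 members and for 3562 of 10570 expressed genes, and replicate 1 was the lowest for 19 of 34 members and for 3445 of these genes.

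The α subunit genes changed unequally, with a far larger change in *Epas1* than in *Hif1a*. *Epas1*, which encodes HIF-2α (GRCm38 chr17:86753700-86833410, + strand), was at 29.1, 37.4 and 33.1 CPM in WT, at 1.93, 1.88 and 1.57 CPM in the libraries labelled Atm-/- and at 9.88, 10.7 and 10.3 CPM in Sirt6-/-. The 3 genotypes did not overlap, and WT was highest in every library. The fall was 18.5-fold in the libraries labelled Atm-/- (log2 fold change -4.21 ± 0.14 SE, edgeR adjusted p = 1.81e-12) and 3.22-fold in Sirt6-/- (-1.69 ± 0.10 SE, edgeR adjusted p = 1.19e-09). *Hif1a* (GRCm38 chr12:73901375-73947530, + strand) was at 331, 326 and 333 CPM in WT, 225, 221 and 207 CPM in the libraries labelled Atm-/- and 484, 503 and 491 CPM in Sirt6-/-. Its levels were thus ordered from the libraries labelled Atm-/- through WT to Sirt6-/-, with gaps wider than the spread within any genotype. The transcript was 1.52-fold lower in the libraries labelled Atm-/- (edgeR adjusted p = 1.89e-08) and 1.49-fold higher in Sirt6-/- (edgeR adjusted p = 9.26e-09). Between the mutant lines it differed 2.25-fold (log2 fold change -1.17 ± 0.040 SE, edgeR adjusted p = 2.39e-16).

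Per length, *Hif1a* already exceeded *Epas1* in WT, with an RPKM ratio of 12.8, 9.82 and 11.3 in the 3 libraries. The ratio was 131, 132 and 149 in the libraries labelled Atm-/- and 55, 52.7 and 53.8 in Sirt6-/-. All 9 libraries thus carried mainly *Hif1a* transcript, and the excess was greatest in the libraries labelled Atm-/-, where *Hif1a* itself was lower than in WT. The difference between each pair of genotypes had an exact two-sided permutation p of 0.1, which is the smallest that 3 against 3 libraries allow. These were 3 of 27 such comparisons, over 9 within-library ratios, none of which could pass a threshold of 0.05 (Benjamini-Hochberg adjusted p = 0.117 for each comparison without overlap).

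*Arnt*, the shared partner, was at 122, 102 and 122 CPM in WT, 68.5, 66.3 and 67.8 CPM in the libraries labelled Atm-/- and 120, 120 and 122 CPM in Sirt6-/-. The libraries labelled Atm-/- stood apart, 1.72-fold below WT (edgeR adjusted p = 9.61e-08). In Sirt6-/- the log2 fold change was 0.067 ± 0.063 SE and was not called (edgeR adjusted p = 0.352), except on library totals (0.16, edgeR adjusted p = 0.0373). The balance of *Hif1a* to *Arnt* per length averaged 2.62 ± 0.245 in WT, 2.93 ± 0.136 in the libraries labelled Atm-/- and 3.70 ± 0.0786 in Sirt6-/- (SD, n = 3). WT and the libraries labelled Atm-/- overlapped in this ratio, and all Sirt6-/- libraries lay above both.

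Of the 5 oxygen-sensing and degradation genes, none changed 2-fold in the libraries labelled Atm-/-, and only *Egln3* did so in Sirt6-/-. Of all genes tested, 22.5% and 29.3% were called at 2-fold or more, so these few genes do not stand apart by this count. *Egln1*, the main HIF prolyl hydroxylase in oxygenated cells, was at 89.9, 85.2 and 90.4 CPM in WT, 84.8, 81.9 and 82.8 CPM in the libraries labelled Atm-/- and 94.6, 102 and 92.2 CPM in Sirt6-/-. Neither difference from WT was called, at log2 fold changes of -0.097 ± 0.051 SE (edgeR adjusted p = 0.109) and 0.12 ± 0.054 SE (edgeR adjusted p = 0.0561). The latter was called on library totals (0.21, edgeR adjusted p = 0.00286). It was also called with at least 10 counts in every sample (0.14, edgeR adjusted p = 0.0323) and with all 9 libraries in one fit (0.12, edgeR adjusted p = 0.0412). *Egln2* averaged 58.4 ± 4.22, 54.2 ± 3.22 and 46.5 ± 0.827 CPM in WT, the libraries labelled Atm-/- and Sirt6-/- (SD, n = 3), and was called only in Sirt6-/-, 1.25-fold lower (edgeR adjusted p = 0.000359). *Egln3*, an inducible hydroxylase that is itself a HIF target, was at 16.5, 14.6 and 19.4 CPM in WT, 12.2, 11.3 and 11.6 CPM in the libraries labelled Atm-/- and 3.1, 3.83 and 3.51 CPM in Sirt6-/-. The Sirt6-/- libraries were far below all others, and the other genotypes lay close together without overlapping. *Egln3* was 4.82-fold lower than WT in Sirt6-/- (log2 fold change -2.27 ± 0.15 SE, edgeR adjusted p = 2.39e-09) and 1.44-fold lower in the libraries labelled Atm-/- (edgeR adjusted p = 0.00096). The libraries labelled Atm-/- held 3.38-fold more *Egln3* than Sirt6-/- (edgeR adjusted p = 2.93e-10). The *Egln1* to *Egln3* RPKM ratio was 3.54 to 4.44 in WT, 5.27 to 5.51 in the libraries labelled Atm-/- and 20 to 23.2 in Sirt6-/-.

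*Vhl*, the substrate-recognition subunit of the ligase, was 1.42-fold lower in the libraries labelled Atm-/- (27.5 ± 1.95 against 38.9 ± 1.10 CPM, SD, n = 3, edgeR adjusted p = 2.75e-05). *Hif1an* was 1.21-fold lower there (56.0 ± 3.14 against 67.2 ± 2.93 CPM, SD, n = 3, edgeR adjusted p = 0.00144), a call that was not kept when library totals were used in place of the trimmed mean of M-values (TMM) scaling (edgeR adjusted p = 0.146). In Sirt6-/- neither gene was called, with log2 fold changes of -0.17 ± 0.081 SE for *Vhl* and -0.014 ± 0.056 SE for *Hif1an*. *Vhl* has a named pseudogene in the annotation, which the authors' counting could have split with it.

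**Figure D2:**
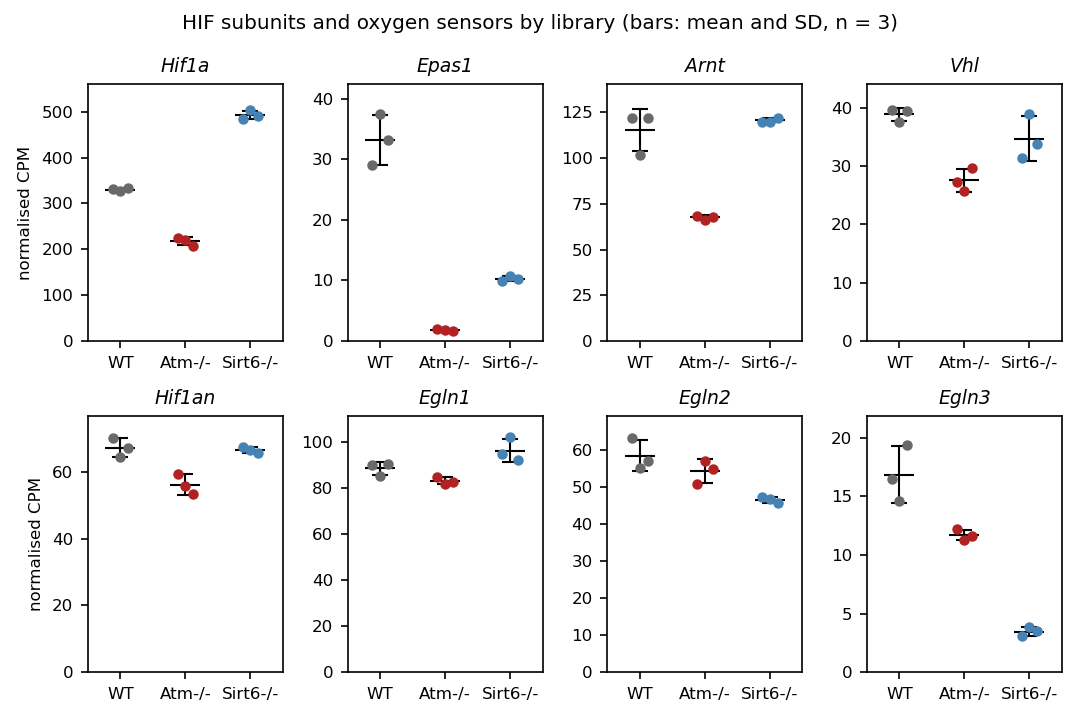
Normalised CPM (vertical axes, starting at 0) of the 3 HIF subunit genes and the 5 sensing and degradation genes in each library; points are libraries, bars the mean and SD of 3 libraries per genotype, and "Atm-/-" marks the libraries so labelled. *Epas1* is near 0 in the libraries labelled Atm-/- (1.57 to 1.93 CPM), *Egln3* is lowest in Sirt6-/- (3.1 to 3.83 CPM), and *Hif1a* is highest in Sirt6-/- (484 to 503 CPM).

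The 4 genes for secreted signals moved in opposite directions. *Vegfa*, the angiogenic growth factor most often read as a HIF target, was at 124, 106 and 117 CPM in WT, 66.8, 74.2 and 75.1 CPM in the libraries labelled Atm-/- and 65.1, 69.4 and 65.6 CPM in Sirt6-/-. Every mutant library was below every WT library, by 1.61-fold (edgeR adjusted p = 3.26e-07) and 1.73-fold (edgeR adjusted p = 2.25e-08). The mutant lines overlapped, and their difference was not called in the main test (edgeR adjusted p = 0.0632), though it was under several alternatives. *Adm*, which encodes the vasodilator peptide adrenomedullin, had 23, 8 and 17 reads in WT (0.721, 0.256 and 0.54 CPM), 10.5, 12.4 and 12.3 CPM in the libraries labelled Atm-/- and 74.6, 72.5 and 70.7 CPM in Sirt6-/-. Nearly silent in WT, it was clearly present in both mutant lines without overlap. The rise was 22.9-fold in the libraries labelled Atm-/- (log2 fold change 4.52 ± 0.24 SE, edgeR adjusted p = 4.41e-10) and 142-fold in Sirt6-/- (7.15 ± 0.15 SE, edgeR adjusted p = 6.14e-15). Among the 34 members, *Adm* ranked 33 by RPKM in WT, 24 in the libraries labelled Atm-/- and 7 in Sirt6-/-.

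*Stc2*, a secreted glycoprotein gene also induced by endoplasmic reticulum stress, was at 4.42, 4.51 and 3.49 CPM in WT, 12.4, 12.4 and 11.6 CPM in the libraries labelled Atm-/- and 17.6, 20.7 and 19 CPM in Sirt6-/-. It followed the same order as *Adm* with smaller steps, being 2.91-fold higher than WT (edgeR adjusted p = 1.71e-07) and 4.61-fold higher (edgeR adjusted p = 9.72e-10). *Mif*, the cytokine macrophage migration inhibitory factor, was the member with the highest level per length in WT (499 ± 25.5 RPKM, SD, n = 3). It was 1.44-fold higher in the libraries labelled Atm-/- (392, 449 and 429 against 295, 307 and 276 CPM, edgeR adjusted p = 9.46e-07) and 1.21-fold higher in Sirt6-/- (331, 365 and 365 CPM, edgeR adjusted p = 0.000323). *Mif* has 2 named pseudogenes, so its counts are uncertain to the extent that reads were shared with them.

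Genes of mitochondria and cell stress again divided. *Bnip3*, a mitophagy receptor of the outer mitochondrial membrane, was at 16.9, 16.1 and 18.2 CPM in WT, 32, 34.7 and 32.3 CPM in the libraries labelled Atm-/- and 75.4, 96 and 87.2 CPM in Sirt6-/-. The genotypes did not overlap, with WT lowest and Sirt6-/- highest. It was 1.92-fold higher than WT in the libraries labelled Atm-/- (log2 fold change 0.94 ± 0.081 SE, edgeR adjusted p = 1.07e-07) and 5.05-fold higher in Sirt6-/- (2.34 ± 0.089 SE, edgeR adjusted p = 5.6e-12). Its paralogue *Bnip3l* (NIX) did not follow, at 152, 155 and 154 CPM in WT, 121, 121 and 120 CPM in the libraries labelled Atm-/- and 158, 176 and 160 CPM in Sirt6-/-. *Bnip3l* was 1.28-fold lower than WT in the libraries labelled Atm-/- (edgeR adjusted p = 4.08e-06) and was not called in Sirt6-/- (edgeR adjusted p = 0.0891). There it was called on library totals (log2 fold change 0.19, edgeR adjusted p = 0.00367) and with at least 10 counts in every sample (0.12, edgeR adjusted p = 0.0479). It has a named pseudogene. The RPKM ratio of *Bnip3* to *Bnip3l* was 0.191 to 0.217 in WT, 0.489 to 0.528 in the libraries labelled Atm-/- and 0.878 to 1 in Sirt6-/-. The receptors thus stood near equality per length only in the Sirt6-/- libraries.

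*Ddit4* (REDD1), an inhibitor of mTORC1 signalling, was at 9.22, 6.11 and 9.11 CPM in WT, 12.1, 13.1 and 13.2 CPM in the libraries labelled Atm-/- and 40, 41.6 and 39.6 CPM in Sirt6-/-. It rose 1.56-fold (edgeR adjusted p = 0.0014) and 4.96-fold (edgeR adjusted p = 2.56e-10), with no overlap. *Ndrg1*, a stress-responsive gene strongly induced by hypoxia in many cells, went the other way, at 229, 133 and 221 CPM in WT, 49.4, 49.9 and 54.9 CPM in the libraries labelled Atm-/- and 65.8, 66.6 and 70.7 CPM in Sirt6-/-. Even the low WT library stood above all 6 mutant libraries, and the falls were 3.80-fold (edgeR adjusted p = 3.12e-08) and 2.87-fold (edgeR adjusted p = 2.07e-07). *Ero1l*, the oxidase that drives disulfide formation in the endoplasmic reticulum, was 1.70-fold lower in the libraries labelled Atm-/- (edgeR adjusted p = 5.53e-08) and 1.62-fold lower in Sirt6-/- (edgeR adjusted p = 3.35e-07). The mutant lines overlapped at 94.5 to 102 CPM and 96.1 to 113 CPM, against 153 to 182 CPM in WT.

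The small mitochondrial protein genes *Higd1a*, linked to respiratory complexes, and *Fam162a*, a hypoxia-induced cell death gene, changed by less. *Higd1a* averaged 33.0 ± 3.59 CPM in WT, 24.1 ± 1.33 CPM in the libraries labelled Atm-/- and 33.6 ± 1.75 CPM in Sirt6-/- (SD, n = 3), and only the fall of 1.38-fold in the libraries labelled Atm-/- was called (edgeR adjusted p = 0.00032). *Fam162a* averaged 50.6 ± 2.01, 42.7 ± 3.36 and 68.6 ± 5.46 CPM in the same order (SD, n = 3). It was 1.19-fold lower in the libraries labelled Atm-/- (edgeR adjusted p = 0.00511, or 0.273 on library totals) and 1.35-fold higher in Sirt6-/- (edgeR adjusted p = 3.3e-05). Its locus overlaps *Wdr5b*, which had 150 to 157 reads in WT, 112 to 128 in the libraries labelled Atm-/- and 219 to 321 in Sirt6-/-, the same order as *Fam162a*. Whether counting used strand was not stated, and the part of *Wdr5b* reads in *Fam162a* was not tested.

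To relate these patterns to sequence, the RefSeq promoters (GRCm38.p6, 250 bases before to 50 after each start) were searched on both strands for the HIF core motifs ACGTG and GCGTG, with overlapping matches allowed. Promoters were found for 27 of the 34 genes, 37 in all. A core was present in 30 of the 37 (81.1%), against 43.8% of 32851 promoters of the same length, and ACGTG itself in 21 (56.8%) against 19.6%. The median GC content was 64.7% in the members' promoters and 52.7% over all promoters, and the part of GC content in these shares was not tested. A core stood in 9 of 12 promoters of the genes that were higher in both lines and in 8 of 9 of those that were lower in both. The 12 promoters came from all 8 genes higher in both, and the 9 from only 5 of the 10 genes lower in both. Each start of a gene was counted separately, so the same sequence could count more than once. Several windows of *Ak4*, which was lower in both, overlapped and held the same cores. By gene, 24 of the 27 had a core in any of their promoters, and the share over all genes was not determined. Promoters with a core thus occurred among the genes of each direction, and the shares were not tested against each other. The 250 bases upstream of the start are shown for 3 genes that moved differently, *Adm* and *Bnip3*, which were higher in both lines, and *Egln3*, which was lower in both. Capitals mark the cores on either strand, so that CACGT and CACGC are ACGTG and GCGTG read from the other strand.
*Adm*, chr7:110627407-110627656 (+ strand): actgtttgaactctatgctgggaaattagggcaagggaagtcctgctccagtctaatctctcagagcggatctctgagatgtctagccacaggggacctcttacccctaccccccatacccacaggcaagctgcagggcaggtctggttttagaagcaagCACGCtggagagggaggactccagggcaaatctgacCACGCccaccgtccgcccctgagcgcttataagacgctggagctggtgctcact
*Bnip3*, chr7:138909507-138909756 (- strand): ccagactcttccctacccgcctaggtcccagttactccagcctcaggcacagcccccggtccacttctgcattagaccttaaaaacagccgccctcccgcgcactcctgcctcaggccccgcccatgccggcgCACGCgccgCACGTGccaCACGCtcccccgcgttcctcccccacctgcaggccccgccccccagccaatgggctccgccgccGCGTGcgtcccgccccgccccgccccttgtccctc
*Egln3*, chr12:54203875-54204124 (- strand): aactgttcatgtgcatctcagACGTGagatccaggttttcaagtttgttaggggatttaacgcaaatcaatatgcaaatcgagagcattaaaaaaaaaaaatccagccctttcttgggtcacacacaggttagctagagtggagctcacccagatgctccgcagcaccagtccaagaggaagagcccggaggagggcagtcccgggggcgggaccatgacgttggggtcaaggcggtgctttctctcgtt
The *Adm* window held 2 GCGTG-type cores, 90 and 54 bases before the start, and no ACGTG. *Bnip3*, with a smaller rise, held 5 cores between 117 and 35 bases before the start, of which the central CACGTG is counted on each strand. The *Egln3* window held a single ACGTG, 229 bases before the start. A match describes these letters only and does not show binding.

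Collagen-modifying enzymes, by which hypoxic fibroblasts hydroxylate and cross-link their matrix, differed between the mutant lines in 5 of 6 genes (75.8% of all genes tested). In the libraries labelled Atm-/-, 5 of the 6 were lower than WT, where 33.6% of all genes tested were lower. In Sirt6-/- 3 were higher and 3 were lower, where 39.2% of all genes tested were higher and 37.4% lower. *Plod2*, the lysyl hydroxylase of collagen telopeptides, was at 389, 398 and 417 CPM in WT, 59, 50.6 and 51.5 CPM in the libraries labelled Atm-/- and 146, 156 and 154 CPM in Sirt6-/-. The genotypes formed separate steps, with falls of 7.51-fold (log2 fold change -2.91 ± 0.061 SE, edgeR adjusted p = 2.36e-14) and 2.63-fold (-1.40 ± 0.048 SE, edgeR adjusted p = 1.64e-12). *Plod1*, which hydroxylates the collagen helix, was at 43, 45.1 and 43.8 CPM in WT, 46.4, 51.7 and 46.2 CPM in the libraries labelled Atm-/- and 116, 130 and 133 CPM in Sirt6-/-. It was 2.88-fold higher than WT in Sirt6-/- (edgeR adjusted p = 1.12e-11) and was not called in the libraries labelled Atm-/- (log2 fold change 0.12 ± 0.066 SE, edgeR adjusted p = 0.119), except on library totals (0.29, edgeR adjusted p = 0.00153). Per length, *Plod2* exceeded *Plod1* 7.86 to 8.48 times in WT, whereas the ratio was 0.873 to 1.13 in the libraries labelled Atm-/- and 1.03 to 1.12 in Sirt6-/-. Both mutant lines thus arrived at a ratio near 1, the first by a lower *Plod2* and the second by a lower *Plod2* together with a higher *Plod1*.

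*P4ha1* and *P4ha2* encode α subunits of collagen prolyl 4-hydroxylase. *P4ha1* was at 346, 284 and 343 CPM in WT, 113, 111 and 112 CPM in the libraries labelled Atm-/- and 233, 263 and 255 CPM in Sirt6-/-, a fall of 2.92-fold (edgeR adjusted p = 3.77e-11) and of 1.29-fold (edgeR adjusted p = 0.000206). *P4ha2* was at 97.2, 88 and 93.6 CPM in WT, 62.4, 58.2 and 59.6 CPM in the libraries labelled Atm-/- and 125, 145 and 137 CPM in Sirt6-/-. It was 1.55-fold lower in the libraries labelled Atm-/- (edgeR adjusted p = 1.75e-07) and 1.46-fold higher in Sirt6-/- (edgeR adjusted p = 1.21e-06), with no overlap of genotypes. The *P4ha1* to *P4ha2* RPKM ratio was 1.97 ± 0.126 in WT, 1.05 ± 0.0309 in the libraries labelled Atm-/- and 1.04 ± 0.0189 in Sirt6-/- (SD, n = 3). The mutant lines overlapped in this ratio (exact permutation p = 0.7, two-sided), as they did for *Plod2* to *Plod1* (exact permutation p = 0.5, two-sided).

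The widest gap between the mutant lines among these enzymes was in *Lox*, the secreted lysyl oxidase that starts collagen and elastin cross-linking. Its level was 1529, 1267 and 1542 CPM in WT, 564, 485 and 565 CPM in the libraries labelled Atm-/- and 4001, 4082 and 4141 CPM in Sirt6-/-. *Lox* was 2.70-fold lower than WT in the former (log2 fold change -1.43 ± 0.074 SE, edgeR adjusted p = 3.42e-10) and 2.82-fold higher in the latter (1.5 ± 0.064 SE, edgeR adjusted p = 2e-11). Between the mutant lines it differed 7.54-fold (edgeR adjusted p = 7.54e-22). At 834 ± 9.68 RPKM (SD, n = 3), it was the member with the highest level per length in Sirt6-/-. *Loxl2*, a relative with the same activity, showed no such split, at 358, 326 and 344 CPM in WT, 107, 101 and 107 CPM in the libraries labelled Atm-/- and 110, 103 and 111 CPM in Sirt6-/-. The mutant lines overlapped, and their log2 difference of -0.029 ± 0.048 SE was not called (edgeR adjusted p = 0.591). Both lay below WT, by 3.27-fold (edgeR adjusted p = 5.94e-13) and 3.17-fold (edgeR adjusted p = 5.19e-13). The *Lox* to *Loxl2* RPKM ratio was 4.11 to 4.74 in WT, 5.06 to 5.57 in the libraries labelled Atm-/- and 38.5 to 41.9 in Sirt6-/-. Of the 3 collagen genes among the fibroblast markers, all were lower than WT in the libraries labelled Atm-/-, whereas in Sirt6-/- *Col1a2* was higher and *Col1a1* and *Col3a1* were lower. In WT, the libraries labelled Atm-/- and Sirt6-/-, *Col1a1* averaged 8667, 1472 and 2377 CPM, *Col1a2* 4730, 884 and 7805 CPM, and *Col3a1* 2227, 109 and 1149 CPM. The part of the collagen and other fibroblast genes in the enzyme levels was not tested.

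**Figure D3:**
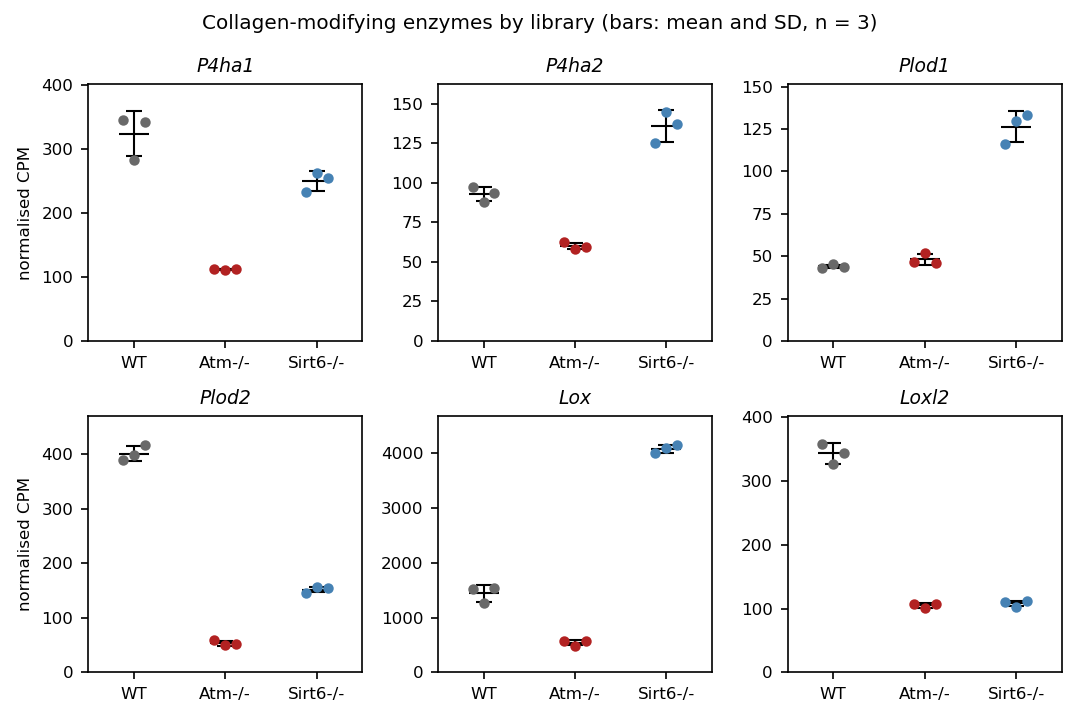
Normalised CPM (vertical axes, starting at 0) of the 6 collagen-modifying enzyme genes in each library; points are libraries, bars the mean and SD of 3 libraries per genotype, and "Atm-/-" marks the libraries so labelled. *Lox* reaches 4001 to 4141 CPM in Sirt6-/- and 485 to 565 CPM in the libraries labelled Atm-/-, whereas *Loxl2* lies between 101 and 111 CPM in both mutant lines.

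Among the transcription and chromatin genes, *Bhlhe40* and *Bhlhe41* encode paired circadian repressors (DEC1 and DEC2). *Bhlhe40* was at 242, 256 and 246 CPM in WT, 67.4, 61.6 and 66 CPM in the libraries labelled Atm-/- and 53.6, 57.1 and 51.6 CPM in Sirt6-/-. All mutant libraries were far below WT, by 3.83-fold (log2 fold change -1.94 ± 0.051 SE, edgeR adjusted p = 1.97e-13) and 4.58-fold (-2.20 ± 0.053 SE, edgeR adjusted p = 3.17e-14). *Bhlhe41*, much scarcer at 2.2, 2.11 and 2.67 CPM in WT, was at 2.83, 3.8 and 3.63 CPM in the libraries labelled Atm-/- and 3.93, 3.8 and 3.87 CPM in Sirt6-/-. Its rise of 1.46-fold in the libraries labelled Atm-/- was called (edgeR adjusted p = 0.036), but not without 1 of 4 single libraries (WT 1, WT 2, Atm-/- 2 or Atm-/- 3, edgeR adjusted p = 0.0812 to 0.122). In Sirt6-/- it was 1.66-fold higher (edgeR adjusted p = 0.00447). Per length, *Bhlhe40* exceeded *Bhlhe41* by a ratio of 208 ± 28.4 in WT, 37.4 ± 7.62 in the libraries labelled Atm-/- and 27.0 ± 1.72 in Sirt6-/- (SD, n = 3).

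*Mxi1*, a MAX-binding antagonist of MYC, was at 15.8, 20.6 and 19.7 CPM in WT, 23.5, 27.3 and 25.6 CPM in the libraries labelled Atm-/- and 56.2, 58.2 and 53.7 CPM in Sirt6-/-. It was 1.36-fold higher than WT in the libraries labelled Atm-/- (edgeR adjusted p = 0.00175) and 3-fold higher in Sirt6-/- (edgeR adjusted p = 6.35e-10), in separate steps. *Kdm3a*, a histone H3K9 demethylase, was higher in both lines, by 1.32-fold (edgeR adjusted p = 3.87e-05) and 1.37-fold (edgeR adjusted p = 4.57e-06). The lines overlapped at 86.5 to 93.9 CPM and 91.9 to 96.4 CPM, above 64.6 to 73.3 CPM in WT, and their log2 difference of -0.045 ± 0.049 SE was not called (edgeR adjusted p = 0.415). *Ankrd37*, an ankyrin-repeat gene commonly used as a hypoxia marker, held only 36 to 126 reads per library. It was at 1.91, 2.05 and 2.57 CPM in WT, 1.04, 1.4 and 2.39 CPM in the libraries labelled Atm-/- and 2.76, 3.89 and 2.91 CPM in Sirt6-/-. The rise of 1.47-fold in Sirt6-/- barely passed (edgeR adjusted p = 0.046) and was lost without WT 1, WT 2, Sirt6-/- 2 or Sirt6-/- 3 (edgeR adjusted p = 0.0609 to 0.202). In the libraries labelled Atm-/- it was not called (edgeR adjusted p = 0.223) and became so without replicate 3, at a log2 fold change of -0.83 (edgeR adjusted p = 0.0367). Its locus overlaps *Ufsp2*, which had 1303 to 1480 reads in WT, 1230 to 1347 in the libraries labelled Atm-/- and 2376 to 2682 in Sirt6-/-. *Ufsp2* was thus also highest in Sirt6-/-, and the few reads of *Ankrd37* are uncertain. The part of *Ufsp2* reads in them was not tested.

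The last 4 genes act in metabolism, pH and iron. *Ak4*, a mitochondrial adenylate kinase, was at 58.8, 53.1 and 57.3 CPM in WT, 24.4, 23.8 and 27 CPM in the libraries labelled Atm-/- and 28.6, 31.2 and 28.7 CPM in Sirt6-/-. It was lower in both mutant lines, by 2.26-fold (edgeR adjusted p = 2.79e-09) and 1.91-fold (edgeR adjusted p = 1.15e-08). *Tfrc*, the transferrin receptor for iron uptake, was at 396, 424 and 437 CPM in WT, 476, 414 and 443 CPM in the libraries labelled Atm-/- and 177, 182 and 163 CPM in Sirt6-/-. Sirt6-/- stood apart, 2.40-fold below WT (edgeR adjusted p = 2.16e-11), while WT and the libraries labelled Atm-/- overlapped (edgeR adjusted p = 0.216). In the latter it was called higher on library totals (log2 fold change 0.24, edgeR adjusted p = 0.00113) and without Atm-/- 2 (0.13, edgeR adjusted p = 0.04997). *Gbe1*, the glycogen branching enzyme, averaged 18.4 ± 1.07, 15.9 ± 1.44 and 15.4 ± 0.609 CPM in WT, the libraries labelled Atm-/- and Sirt6-/- (SD, n = 3). It was called in Sirt6-/- (log2 fold change -0.25 ± 0.092 SE, edgeR adjusted p = 0.0211) but not without WT 1 or Sirt6-/- 3 (edgeR adjusted p = 0.0682 and 0.0731). The call was also lost on library totals (-0.16, edgeR adjusted p = 0.117). In the libraries labelled Atm-/- the difference was of like size and was not called (-0.22 ± 0.099 SE, edgeR adjusted p = 0.0669), except without WT 2 or Atm-/- 3 (edgeR adjusted p = 0.0469 and 0.0369). The mutant lines overlapped (log2 difference 0.054 ± 0.097 SE, edgeR adjusted p = 0.621).

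*Car9*, carbonic anhydrase IX and among the most oxygen-sensitive HIF targets known, was close to the limit of detection. It had 10, 2 and 7 reads in WT, 2, 11 and 6 in the libraries labelled Atm-/- and 13, 14 and 12 in Sirt6-/-. Sirt6-/- was above the other genotypes in all libraries, yet neither difference was called (edgeR adjusted p = 0.136 against WT and 0.1 against the libraries labelled Atm-/-), and at this depth a moderate change was not detectable.

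**Figure D4:**
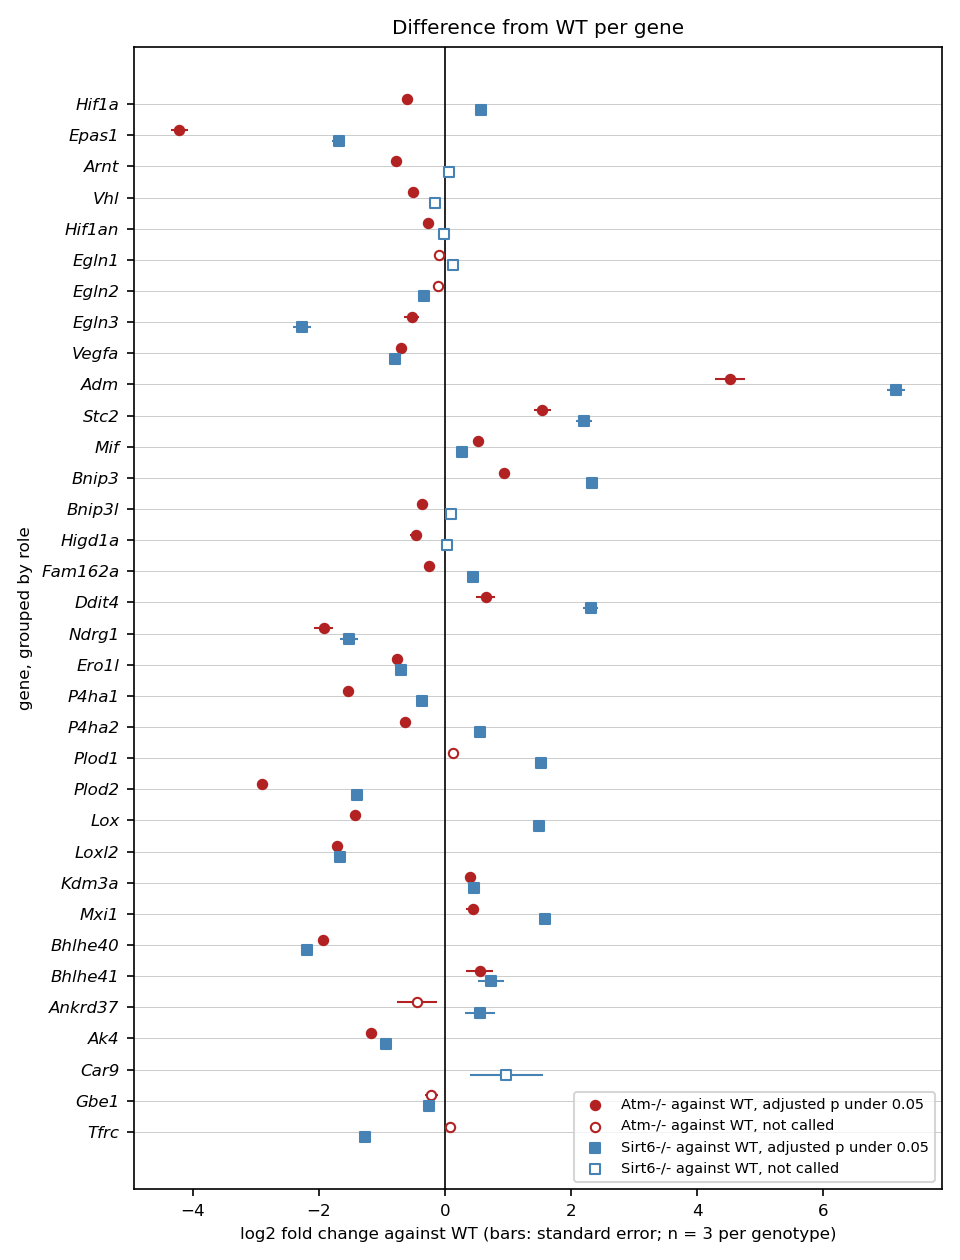
Log2 fold change against WT (horizontal axis, bars the standard error, 3 libraries per genotype) of each gene in the libraries labelled Atm-/- (red circles) and in Sirt6-/- (blue squares); filled symbols passed an edgeR adjusted p under 0.05 and open ones did not. *Adm* lies farthest to the right (4.52 and 7.15), *Epas1* farthest to the left (-4.21 in the libraries labelled Atm-/-), and *Lox* and *Hif1a* on opposite sides of 0.

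**Figure D5:**
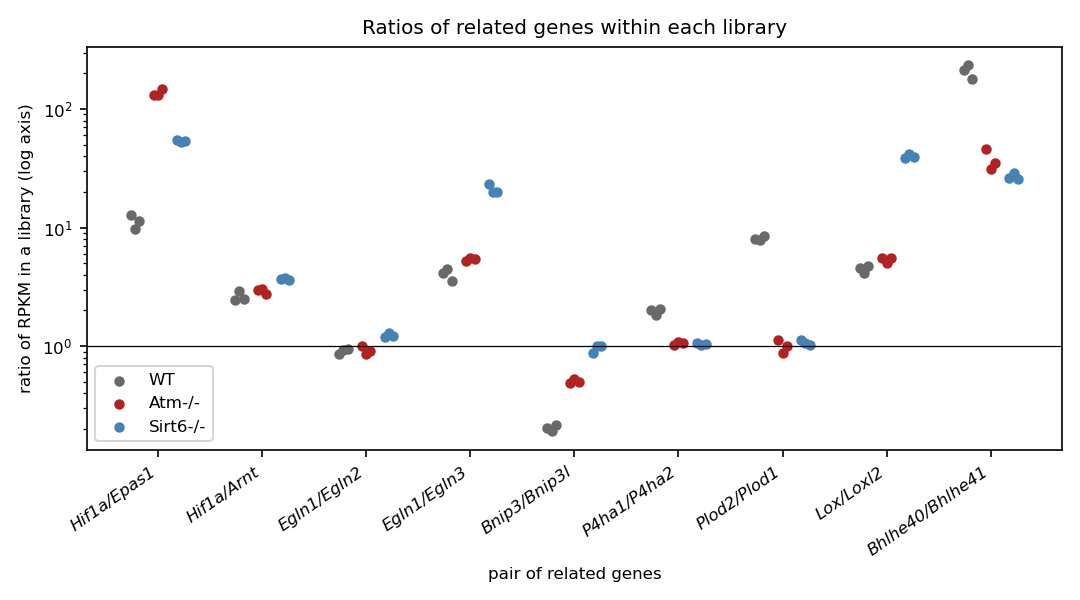
Ratio of RPKM between related genes (log vertical axis) in each library, for 9 pairs of genes; points are libraries, coloured by genotype, with the horizontal line at 1 and "Atm-/-" marking the libraries so labelled. *Plod2*/*Plod1* and *P4ha1*/*P4ha2* fall to near 1 in both mutant lines, *Lox*/*Loxl2* is raised to 38.5 to 41.9 in Sirt6-/-, and *Hif1a*/*Epas1* is highest in the libraries labelled Atm-/- (131 to 149).

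The rest of the HIF pathway was likewise divided. Of 20 further pathway components (other subunits, coactivators and degradation machinery), 18 were tested in each comparison, with 8 higher and 7 lower in the libraries labelled Atm-/- and 7 higher and 7 lower in Sirt6-/-. The share called was 83.3% and 77.8%, against 68.4% and 76.6% of all genes tested, and the median log2 fold changes were 0.13 and 0.066. *Arnt2*, a second ARNT, was at 127, 95.1 and 117 CPM in WT, 13.1, 12.6 and 14.7 CPM in the libraries labelled Atm-/- and 135, 139 and 143 CPM in Sirt6-/-. It thus repeated, more sharply, the loss of *Arnt* in the libraries labelled Atm-/- (8.46-fold lower, edgeR adjusted p = 2.41e-12). *Cited2*, which competes with HIF-α for the coactivators p300 and CBP, was 2.66-fold higher than WT in Sirt6-/- (257 ± 12.1 against 96.6 ± 8.35 CPM, SD, n = 3, edgeR adjusted p = 2.68e-11). *Siah1b*, a ubiquitin ligase of the prolyl hydroxylases, was 3.06-fold higher in the libraries labelled Atm-/- (edgeR adjusted p = 1.27e-08).

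Glycolytic HIF targets, all 20 of which were tested, were 9 higher and 8 lower in the libraries labelled Atm-/- and 8 higher and 9 lower in Sirt6-/-, a share of 85% in each, against the same 68.4% and 76.6% of all genes. Their median log2 fold changes were 0.075 and -0.12. *Hk1* was 2.97-fold and 2.82-fold higher than WT (edgeR adjusted p = 2.94e-12 and 3.75e-12), whereas *Pfkfb3*, the regulator of phosphofructokinase, was 2.55-fold and 4.56-fold lower (edgeR adjusted p = 1.36e-10 and 1.61e-12). Of 30 further hypoxia-induced genes, 27 were tested against WT, with 10 higher and 15 lower in the libraries labelled Atm-/- and 11 higher and 11 lower in Sirt6-/-. These shares were 92.6% and 81.5%, and the medians -0.30 and -0.015. *Edn1*, the vasoconstrictor endothelin-1, was at 200, 181 and 188 CPM in WT, 17.2, 12.9 and 18.9 CPM in the libraries labelled Atm-/- and 1.35, 1.14 and 2.19 CPM in Sirt6-/-, the reverse of the order in *Adm*. *Angptl4*, a secreted lipase inhibitor, was 58.7-fold higher than WT in Sirt6-/- (110 ± 3.22 against 1.88 ± 0.215 CPM, SD, n = 3, edgeR adjusted p = 2.83e-16). *Pdk1*, which restrains mitochondrial pyruvate oxidation, was 2.32-fold lower in the libraries labelled Atm-/- than in Sirt6-/- (edgeR adjusted p = 1.35e-12).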

How the data were processed

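There were 9 libraries from mouse embryonic fibroblasts, 3 per genotype, made from oligo(dT)-selected mRNA primed with random hexamers. For each library the authors deposited a table of raw read counts per gene with RPKM values (reads per kilobase of gene length, scaled to library size). The submitters' processing notes name the mm10 build, and the aligner, the counter and the use of strand are not given in the sources used here. RPKM, which carries no TMM scaling, served for levels, ratios and ranks between genes and for the sums of marker genes. It also served for an alternative form of the members' median. Counts were tested for each pair of genotypes over all genes with the edgeR quasi-likelihood test (edgeR 4.0.16, R 4.3.3, filterByExpr, TMM scaling, Benjamini-Hochberg adjustment, call at an adjusted p under 0.05), with no covariate, on the 6 libraries of the pair. CPM values used TMM scaling over all 9 libraries, and 3 counts correspond to 0.0887 to 0.0932 CPM. The test was run on simulated counts in which a small set of genes was changed 2-fold, equally often up and down, with the same dispersion for all genes. That setting does not cover data in which most genes differ, as here. Same-numbered libraries did not deviate together (9 pairs, r from -0.0151 to 0.0588), and no files were identical. Alternatives were DESeq2 1.42.0 (size factors and Wald test), library totals, other filters, all 9 libraries in one fit, a replicate block, each library left out, and a 2-fold minimum. Sequences and positions came from RefSeq and GENCODE (GRCm38). All 34 members are named, and from each of the lists of other HIF components, glycolytic targets and further hypoxia-induced genes, some of the 2 genes with the largest rise and fall per comparison, provided that their log2 CPM averaged 3 or more and the libraries of the genotypes did not overlap. Marker genes named as checks of cell identity (*Thy1*, *Lum*, *Tie1*, *Cdh1*, *Krt18*, *Krt19*, *Cd14*, *Csf1r*, *Cd68*, *Col1a1*, *Col1a2* and *Col3a1*) were chosen after their values were seen. The members and lists were chosen with earlier results of these data known.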

Additional observations from a re-analysis of the deposited data

How the results depend on the processing

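Over all alternatives, 1253 of 1309 log2 fold changes of single members kept their direction and their side of the threshold, 22 newly passed it, 20 no longer passed it and 14 changed sign, none of the last being called in the main test. On library totals without TMM the median over all genes moved from 0.015 to 0.18 in the libraries labelled Atm-/- (64.9% of called genes higher, against 50.8%), and the members' median from -0.44 to -0.281. In Sirt6-/- the members' median moved to 0.173. Members then split 10 higher to 17 lower in the libraries labelled Atm-/- and 17 to 12 in Sirt6-/-. In Sirt6-/- this was 58.6% of called members higher, near the 57.3% of all called genes on library totals (51.2% with TMM). From deposited RPKM, the members' median log2 ratio of mean levels was -0.281 and 0.17 against WT and -0.399 between the mutant lines. Requiring a 2-fold change as well left 1675 higher and 1308 lower of all genes and 2 and 8 members in the libraries labelled Atm-/-, 2315 and 1557 of all genes and 7 and 7 members in Sirt6-/-, and 1523 and 1910 of all genes and 2 and 11 members between the mutant lines. Leaving out single libraries gave a members' median of -0.502 to -0.353 in the libraries labelled Atm-/-.

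Sign changes on library totals were *Egln1* 0.0673 and *Egln2* 0.0499 in the libraries labelled Atm-/-, *Hif1an* 0.0761 in Sirt6-/-, and *Ero1l* 0.00671, *Loxl2* 0.0296 and *Kdm3a* 0.0141 between the mutant lines. *Hif1an* in Sirt6-/- was 0.00251 with at least 10 counts in every sample and -0.0587 to 0.00494 with single libraries left out. With single libraries left out, *Arnt* was -0.0271 to 0.0976 and *Higd1a* -0.072 to 0.0786 in Sirt6-/-, while *Ero1l* was -0.106 to 0.0145, *Loxl2* -0.0625 to 0.000785 and *Gbe1* -0.0176 to 0.108 between the mutant lines. The cause was not tested.

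Same-numbered libraries shared only a number. With the number as a replicate block, 7 members were higher and 19 lower in the libraries labelled Atm-/-, 13 and 13 in Sirt6-/- and 5 and 22 between the mutant lines, *Bhlhe41* (edgeR adjusted p = 0.0579) and *Ankrd37* (edgeR adjusted p = 0.0716) losing their calls. The DESeq2 Wald test gave 7 and 19, 13 and 13, and 5 and 22. Leaving out a single library removed the calls of *Bhlhe41* in the libraries labelled Atm-/-, *Ankrd37* and *Gbe1* in Sirt6-/-, and *Ak4* between the mutant lines. It added calls, absent from the main test, for *Ankrd37*, *Egln1*, *Gbe1* and *Tfrc* in the libraries labelled Atm-/-. It likewise added *Egln1* and *Vhl* in Sirt6-/-, and *Car9* and *Vegfa* between the mutant lines. Of the added calls, *Tfrc*, *Egln1* in Sirt6-/- and *Vegfa* were also made on library totals (edgeR adjusted p = 0.00113, 0.00286 and 0.0077). With at least 10 counts in every sample, *Egln1* in Sirt6-/- and *Vegfa* were called too (edgeR adjusted p = 0.0323 and 0.0437). *Vegfa* was called as well with DESeq2 size factors (edgeR adjusted p = 0.0491). Depth limited *Car9*, *Ankrd37* and, in WT, *Adm*.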
